A study of Homo sapiens with 24 samples.

Results

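The genes described here are 10 targets of the FOXO transcription factors, measured in 4 head and neck squamous cell carcinoma lines made resistant to erlotinib, an inhibitor of the EGF receptor tyrosine kinase. They are CCNG2, CDKN1B, RBL2, IRS2, PIK3IP1, SESN1, TXNIP, FBXO32, BCL6 and CITED2. The list was drawn up with the resistant against sensitive changes of these same arrays in view, so those changes are given as a description, without a test of the genes. All probes that the array annotation assigns to these symbols were taken, which gave 15 probes of the 30113 that carry 1 gene symbol. Of these, 14 probes passed the filter on detection, and each of the 10 genes was represented by its brightest probe among 14077 genes tested. By that probe, 9 of the 10 genes were detected on all 3 arrays of all 8 groups. The exception was CCNG2, which was detected on 2 of the 3 sensitive Cal-27 arrays.

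The study profiled total RNA on Illumina beadchips, in which many beads per probe report the abundance of a transcript as a fluorescence intensity. There were 24 arrays in 8 groups of 3: erlotinib-resistant SCC-25, Cal-27, FaDu and SQ20B cells, and the erlotinib-sensitive (parental) cells of each line. SCC-25 and Cal-27 are carcinomas of the tongue, FaDu of the pharynx and SQ20B of the larynx. All 8 groups received 0.01% DMSO, the vehicle, for 48 h before harvest. The resistant cells of each line were maintained in that line's medium with erlotinib added, and the sensitive cells without it. The sources used here do not give whether erlotinib was present during the final 48 h. The labels name 1 resistant culture per line and do not say whether it was 1 clone, so resistance and any other way in which the paired cultures differ cannot be told apart. They also do not say that the 3 arrays of a group came from separate cultures, so standard errors and p-values cover only the spread between arrays, which may be technical.

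FOXO proteins are forkhead transcription factors that sit at the end of the pathway running from growth factor receptors through PI3K to AKT. When the pathway is active, AKT phosphorylates FOXO, which then leaves the nucleus. When the pathway is quiet, FOXO stays in the nucleus and switches on genes for cell cycle arrest, for protein breakdown and for restored sensitivity of the insulin pathway. In epithelial cells driven by EGFR, the pathway is one route by which receptor signalling controls proliferation.

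Proximal promoters were read from RefSeq (GRCh38.p14), since they are one place where FOXO factors can bind. The table held 17 promoters for 9 of the 10 genes. They were searched on both strands for the forkhead core GTAAACA, which reads TGTTTAC on the opposite strand. They were also searched for the insulin response core AAAACAA, which reads TTGTTTT on the opposite strand. No match of one overlapped a match of the other. The first was found in 1046 of the 35116 promoters of all genes (2.98%), and in 1 of the 17 promoters here, a promoter of TXNIP. The second was found in 2333 promoters (6.64%), and in promoters of IRS2 and BCL6. The 3 promoters that hold a match are shown. The other TXNIP promoter held none, and whether a match bears on any change was not tested. Each sequence covers the 250 bases before the transcription start, read 5′ to 3′ on the minus strand of the gene, with the matched letters in capitals. A match is a string of letters and not a measured binding site.
TXNIP, chr1:145996580-145996829, minus strand, match starting at -124: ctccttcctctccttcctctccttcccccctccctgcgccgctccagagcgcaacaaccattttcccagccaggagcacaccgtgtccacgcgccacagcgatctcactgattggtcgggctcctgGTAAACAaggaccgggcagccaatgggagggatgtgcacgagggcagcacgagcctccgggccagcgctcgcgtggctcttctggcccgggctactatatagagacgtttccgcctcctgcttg
IRS2, chr13:109786584-109786833, minus strand, match starting at -41: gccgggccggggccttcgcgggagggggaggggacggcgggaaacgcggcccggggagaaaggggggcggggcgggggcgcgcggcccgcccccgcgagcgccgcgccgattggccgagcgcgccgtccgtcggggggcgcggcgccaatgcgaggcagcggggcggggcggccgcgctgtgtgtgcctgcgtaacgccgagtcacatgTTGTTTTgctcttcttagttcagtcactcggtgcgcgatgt
BCL6, chr3:187736502-187736751, minus strand, match starting at -176: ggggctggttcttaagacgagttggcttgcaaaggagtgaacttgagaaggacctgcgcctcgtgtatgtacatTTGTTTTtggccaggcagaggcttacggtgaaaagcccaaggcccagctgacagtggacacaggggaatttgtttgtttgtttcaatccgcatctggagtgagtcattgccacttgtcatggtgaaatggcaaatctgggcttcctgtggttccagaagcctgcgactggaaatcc

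Across the 24 arrays, 39.5% to 45% of probes were detected, and replicate arrays of a group correlated at 0.991 to 0.996. No array stood apart. SCC-25 and Cal-27 shared 1 table of 12 arrays and FaDu and SQ20B the other, so log2 levels are set side by side only within a table. Both tongue lines were in the same table, so tongue origin and table cannot be told apart. Of 10 markers of squamous epithelium, 8 had a named probe, and all 8 were detected on all 3 arrays in 5 of the 8 groups. PKP1, a desmosome plaque protein, was detected on 1 of 3 resistant Cal-27 arrays, and KRT14, the basal keratin, and PKP1 were detected on no SQ20B array. The squamous markers were called lower in resistant cells for 7 of 8 in SCC-25, 6 of 8 in Cal-27, 5 of 8 in FaDu and 2 of 8 in SQ20B, where 15.5%, 17.4%, 20.3% and 25.8% of all genes were. The adhesion proteins CDH1 in FaDu (0.31) and DSG3 in SQ20B (1.07) were called higher. Their summed log2 levels were 86.9 in resistant and 91.01 in sensitive SCC-25, 73.08 in resistant and 88.41 in sensitive Cal-27, 71.37 in resistant and 77.72 in sensitive FaDu, and 67.67 in resistant and 69.96 in sensitive SQ20B. Of 11 markers of other cell types, 5 to 7 were detected on no array of a group, and their summed log2 level lay between 56.95 and 58.42 in the SCC-25 and Cal-27 groups and between 53.28 and 57.23 in the FaDu and SQ20B groups. Of the 7 that were tested, 2 were called higher and 1 lower in SCC-25 and in Cal-27, 1 higher and 2 lower in FaDu, and 2 higher and none lower in SQ20B. Among them were the monocyte marker CD14 (0.97 in SCC-25, -0.72 in FaDu, 0.33 in Cal-27), the endothelial VWF (-1.04 in FaDu, 0.48 in SQ20B), COL1A2 (-0.83 in SCC-25, -0.63 in Cal-27) and PDGFRB (0.73 in Cal-27, not detected in the sensitive cells). The part of these markers in the values below was not tested.

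A change is the difference of mean log2 levels, resistant minus sensitive, with its standard error (SE) from limma, and a gene was called where its adjusted p over all 14077 genes was under 0.05. In resistant SCC-25 cells 5 of the 10 genes were called higher and 2 lower, in a line where 30.9% of all genes were called (15.4% higher and 15.5% lower). In Cal-27, 6 were called higher and 2 lower, and 33.8% of all genes were called (16.4% higher and 17.4% lower). In FaDu, 9 were called higher and none lower, beside 40.9% of all genes (20.6% higher and 20.3% lower). The gene not called there was CITED2, which was called lower under 6 of 17 alternatives. In SQ20B all 10 were called higher, beside 54.3% of all genes (28.4% higher and 25.8% lower). Nothing is read from the members' counts, because the same values chose them. The median change of the 10 genes was 1.28 in FaDu, 0.89 in SQ20B, 0.39 in SCC-25 and 0.37 in Cal-27, where the median of all genes lay between -0.02 and 0. In SCC-25 all 3 resistant arrays lay above all 3 sensitive arrays for 7 of the 10 genes (20.3% of all genes) and below for 2 (20.4%). In Cal-27 they lay above for 5 (22.9% of all genes) and below for 2 (25.1%). In FaDu they lay above for 9 (24.6%) and below for none (25.2%), and in SQ20B above for 10 (31.7%) and below for none (29%).

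Of the 40 values of 10 genes in 4 lines, 30 were called higher, 4 lower and 6 not called. CCNG2, CDKN1B and IRS2 were called higher in all 4 lines, a pattern that 229 of all genes (1.63%) had. TXNIP, FBXO32, PIK3IP1 and CITED2 were called in both directions, a pattern that 2544 of all genes (18.1%) had. Each of these 4 members was called lower in 1 of the 2 tongue lines and higher in SQ20B. The smallest called changes were those of SESN1 in SQ20B, 0.27 ± 0.09, and in FaDu, 0.30 ± 0.09. Just outside the calls were BCL6 in SCC-25, 0.32 ± 0.12, and CITED2 in FaDu, -0.24 ± 0.09. In whole cultures, fewer cells that express a gene and less RNA per cell cannot be told apart.

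**Figure D1:**
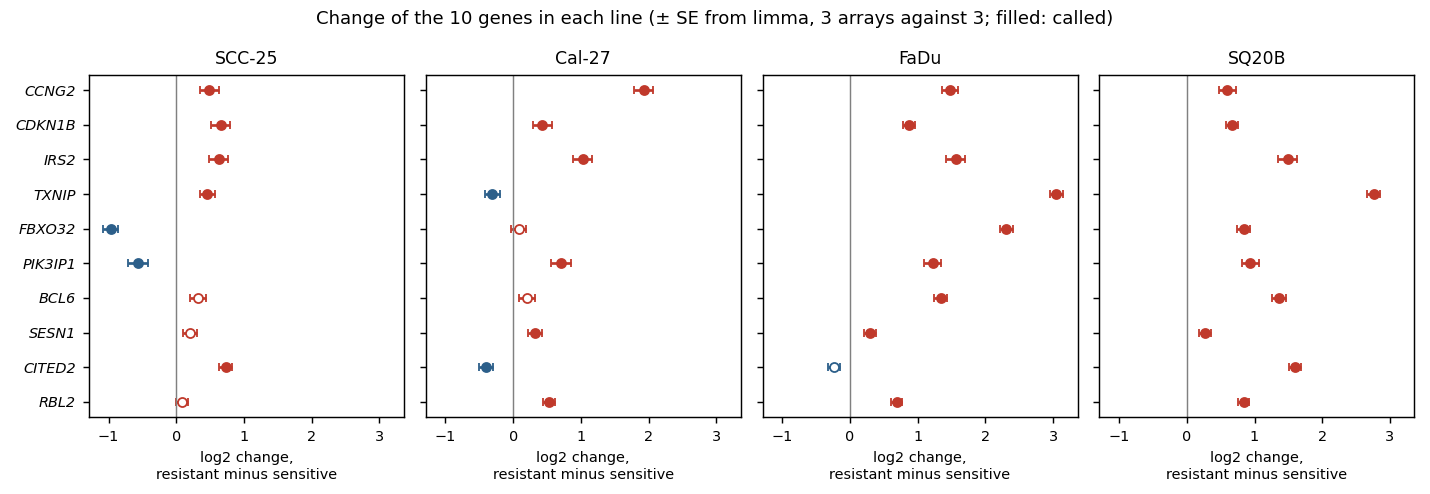
Change of each of the 10 genes in each line, as the log2 difference of resistant minus sensitive cells (x axis) with the SE from limma, 3 arrays against 3, filled where called. In FaDu 9 of the 10 points are filled and lie right of 0 and in SQ20B all 10 do, whereas SCC-25 and Cal-27 each hold 2 filled points left of 0.

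Among the members that act on the cell cycle, CCNG2 encodes cyclin G2, an unconventional cyclin that is abundant in quiescent cells and slows entry into the cell cycle. In Cal-27 its log2 levels were 7.15, 7.10 and 6.92 in resistant cells, against 5.37, 5.17 and 4.85 in sensitive cells. In FaDu they were 7.34, 7.28 and 7.09 in resistant cells, against 5.86, 5.70 and 5.73 in sensitive cells. In both lines every resistant array lay more than 1 log2 unit above every sensitive array, and the changes were 1.93 ± 0.14 in Cal-27 and 1.48 ± 0.12 in FaDu. SQ20B had 7.51, 7.71 and 7.57 in resistant cells and 7.03, 7.21 and 6.76 in sensitive cells. SCC-25 had 5.85, 5.82 and 6.20 in resistant cells and 5.49, 5.58 and 5.35 in sensitive cells. The groups did not overlap in these lines either, but the changes were smaller, 0.60 ± 0.12 in SQ20B and 0.49 ± 0.14 in SCC-25. The SCC-25 call was lost without resistant replicate 3 (0.36) and without sensitive replicate 3 (0.42), and the change of CCNG2 there was 0.25 as the mean of its 3 probes.

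CCNG2 had 2 dimmer probes. One of them, ILMN_1747244, changed by 1.08 ± 0.22 in Cal-27 and 1.12 ± 0.16 in FaDu, and by 0.31 ± 0.16 in SQ20B and 0.17 ± 0.22 in SCC-25. The other, ILMN_1879480, was detected on no sensitive array of Cal-27 or FaDu and on all 3 resistant arrays of both. Its level there was at least 1.15-fold higher in resistant Cal-27 and at least 1.4-fold higher in resistant FaDu cells, measured against the dimmest detected signal of each array. In SCC-25 this probe was not detected in either group.

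CDKN1B encodes p27, an inhibitor of cyclin-dependent kinases that holds cells in G1. Its log2 levels in FaDu were 10.08, 10.02 and 10.02 in resistant cells, against 9.29, 9.14 and 9.07 in sensitive cells. In SQ20B they were 9.86, 9.95 and 10.08 in resistant cells, against 9.14, 9.38 and 9.35 in sensitive cells. In SCC-25 they were 9.02, 8.77 and 9.0 in resistant cells, against 8.38, 8.21 and 8.22 in sensitive cells. Resistant arrays lay above all sensitive arrays in these 3 lines, by 0.87 ± 0.09 in FaDu, 0.67 ± 0.09 in SQ20B and 0.66 ± 0.14 in SCC-25. Cal-27 had 8.81, 8.94 and 8.75 in resistant cells and 8.77, 8.22 and 8.23 in sensitive cells, so the groups overlapped through 1 sensitive array. Its change in Cal-27, 0.43 ± 0.14, was not called without resistant replicate 1 (0.44) or 2 (0.38), nor without sensitive replicate 2 (0.33) or 3 (0.34). The second probe, ILMN_1722811, changed by 0.91 ± 0.09 in FaDu, 0.30 ± 0.09 in SQ20B, 0.35 ± 0.11 in SCC-25 and 0.33 ± 0.11 in Cal-27.

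RBL2 encodes p130, the pocket protein related to RB that occupies E2F sites in resting cells. In SQ20B its log2 levels were 10.10, 10.03 and 9.98 in resistant cells, against 9.31, 9.13 and 9.15 in sensitive cells. In FaDu they were 10.20, 10.27 and 10.19 in resistant cells, against 9.48, 9.56 and 9.54 in sensitive cells. In Cal-27 they were 9.65, 9.61 and 9.72 in resistant cells, against 9.05, 9.13 and 9.20 in sensitive cells. The groups were apart in all 3 lines, and the changes were 0.84 ± 0.08 in SQ20B, 0.69 ± 0.08 in FaDu and 0.53 ± 0.09 in Cal-27. SCC-25 was the line where RBL2 was not called, with 9.16, 9.05 and 9.12 in resistant cells, 8.87, 9.07 and 9.15 in sensitive cells, and a change of 0.08 ± 0.09.

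**Figure D2:**
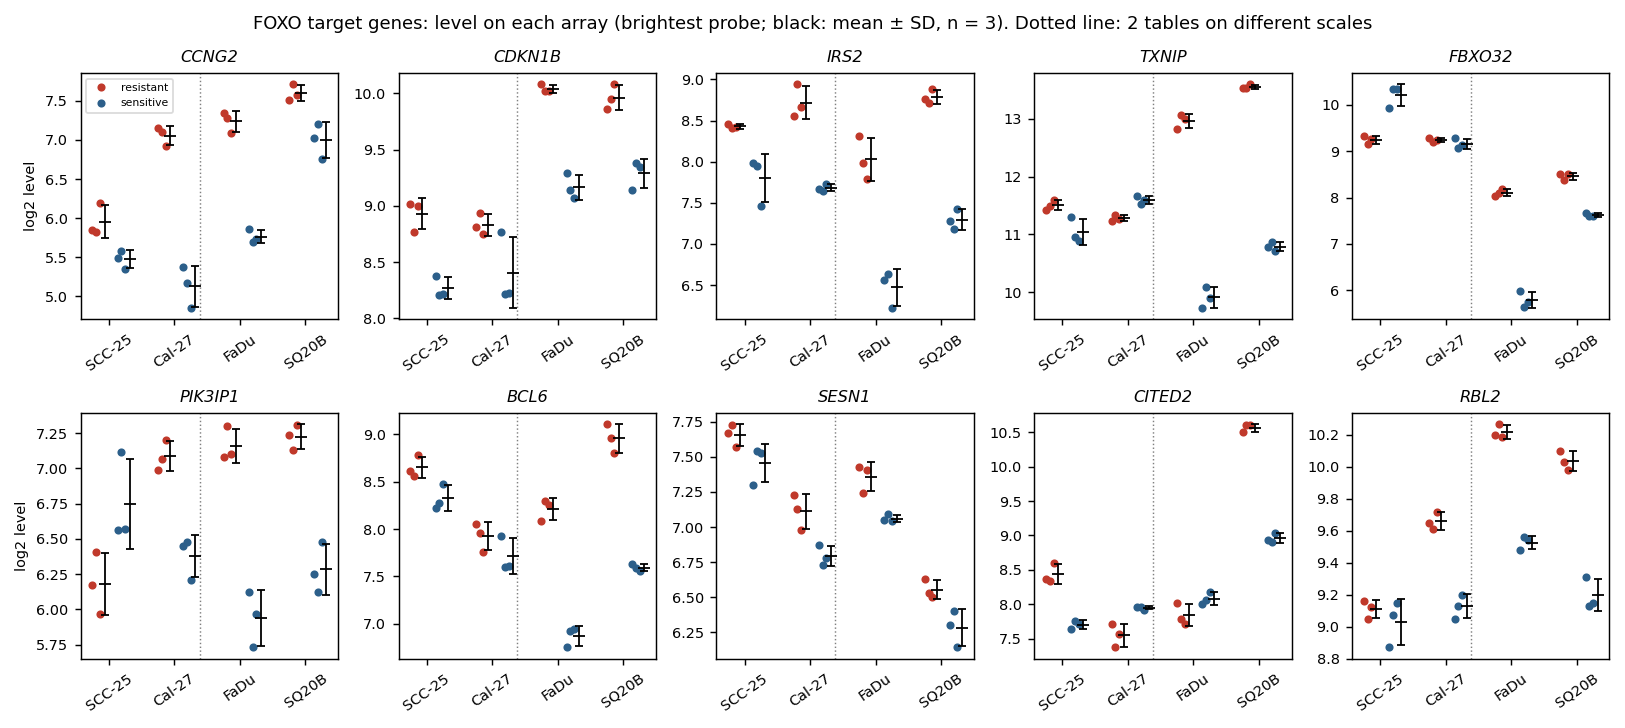
Log2 level of each of the 10 genes on every array (y axis), 3 resistant arrays left of 3 sensitive arrays in each line. Black marks are group means with their SD. The group means of CCNG2, CDKN1B and IRS2 are higher in the resistant cells of all 4 lines, although the CDKN1B arrays overlap in Cal-27. TXNIP, with 12.82 to 13.59 on resistant FaDu and SQ20B arrays against 9.73 to 10.87 on sensitive ones, shows the widest gap.

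The members that feed back on insulin and PI3K signalling were IRS2, PIK3IP1 and SESN1. IRS2 is an adaptor that links insulin and IGF receptors to PI3K. Its log2 levels in FaDu were 8.31, 7.99 and 7.79 in resistant cells, against 6.56, 6.64 and 6.22 in sensitive cells. In SQ20B they were 8.76, 8.71 and 8.88 in resistant cells, against 7.28, 7.18 and 7.43 in sensitive cells. The gap exceeded 1 log2 unit between all arrays of both lines, with changes of 1.56 ± 0.14 in FaDu and 1.49 ± 0.14 in SQ20B. Cal-27 had 8.55, 8.94 and 8.66 in resistant cells and 7.67, 7.65 and 7.73 in sensitive cells. SCC-25 had 8.46, 8.41 and 8.42 in resistant cells and 7.98, 7.95 and 7.46 in sensitive cells. No arrays overlapped here, and the changes were 1.03 ± 0.14 in Cal-27 and 0.63 ± 0.14 in SCC-25. IRS2 was measured by 1 probe, and its call held in all 4 lines under each of the 17 alternatives tried per line.

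PIK3IP1 is a membrane protein that binds the catalytic subunit of PI3K and restrains it. In FaDu it had log2 levels of 7.08, 7.30 and 7.10 in resistant cells, against 6.12, 5.73 and 5.97 in sensitive cells. SQ20B had 7.24, 7.13 and 7.31 in resistant cells, against 6.25, 6.12 and 6.48 in sensitive cells. Cal-27 had 6.99, 7.07 and 7.20 in resistant cells, against 6.45, 6.48 and 6.21 in sensitive cells. All resistant arrays lay above all sensitive arrays in these lines, by 1.22 ± 0.12 in FaDu, 0.94 ± 0.12 in SQ20B and 0.71 ± 0.15 in Cal-27. SCC-25 ran the other way, with 6.17, 6.41 and 5.97 in resistant cells, 6.56, 7.12 and 6.57 in sensitive cells, and a change of -0.57 ± 0.15. The SCC-25 change was not called without resistant replicate 3 (-0.46) or without sensitive replicate 2 (-0.39).

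SESN1 encodes sestrin 1, a stress-induced protein that lowers mTORC1 activity. Its changes were the narrowest of the 10 genes across the lines, 0.32 ± 0.10 in Cal-27, 0.30 ± 0.09 in FaDu, 0.27 ± 0.09 in SQ20B and 0.20 ± 0.10 in SCC-25. Its log2 levels in SQ20B were 6.63, 6.53 and 6.50 in resistant cells, against 6.30, 6.40 and 6.14 in sensitive cells. Resistant arrays lay above sensitive arrays in all 4 lines, though the gap was as small as the difference between 7.57 and 7.54 in SCC-25. The calls of SESN1 were lost in Cal-27 without resistant replicate 1 (0.26) or 2 (0.31) or sensitive replicate 2 (0.28) or 3 (0.31), in FaDu without resistant replicate 1 (0.26) or 3 (0.27) or sensitive replicate 3 (0.29), and in SQ20B without resistant replicate 1 (0.24) or sensitive replicate 3 (0.20).

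TXNIP and FBXO32 act in metabolism and protein turnover. TXNIP is an arrestin-related protein that binds thioredoxin and limits glucose uptake. In FaDu its log2 levels were 12.82, 13.06 and 13.00 in resistant cells, against 9.73, 10.10 and 9.91 in sensitive cells. In SQ20B they were 13.53, 13.53 and 13.59 in resistant cells, against 10.78, 10.87 and 10.71 in sensitive cells. TXNIP was thus 8.26-fold higher in resistant FaDu (3.05 ± 0.10 on the log2 scale) and 6.79-fold higher in resistant SQ20B (2.76 ± 0.10). These were the 33rd and the 122nd largest rises among 14077 genes. Within that table the levels ran in the order resistant SQ20B, resistant FaDu, sensitive SQ20B and sensitive FaDu, with no overlap between neighbours.

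The tongue lines, which formed the other table, differed from this. In SCC-25 TXNIP had log2 levels of 11.43, 11.50 and 11.59 in resistant cells, against 11.30, 10.95 and 10.89 in sensitive cells, a change of 0.46 ± 0.11. In Cal-27 it had 11.24, 11.34 and 11.26 in resistant cells, against 11.66, 11.52 and 11.60 in sensitive cells, a change of -0.31 ± 0.11. Groups did not overlap in either line, and the direction was opposite. The Cal-27 change of TXNIP was not called when any 1 of its 6 arrays was left out (-0.35 to -0.27), nor with each array scaled to its median (-0.30). Median scaling also ended the SCC-25 call, at 0.40.

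FBXO32, also called atrogin-1, is the substrate-recognition subunit of a ubiquitin ligase known from wasting muscle. By its brightest probe, the log2 levels in FaDu were 8.04, 8.09 and 8.19 in resistant cells, against 5.99, 5.64 and 5.75 in sensitive cells. SQ20B had 8.52, 8.38 and 8.50 in resistant cells, against 7.67, 7.60 and 7.60 in sensitive cells. The gene was 4.97-fold higher in resistant FaDu (2.31 ± 0.10), the 85th largest rise of 14077 genes, and changed by 0.84 ± 0.10 in SQ20B. SCC-25 had 9.32, 9.16 and 9.26 in resistant cells, against 9.94, 10.34 and 10.35 in sensitive cells, all resistant arrays being lower, with a change of -0.97 ± 0.11. In Cal-27 the groups overlapped, with 9.28, 9.21 and 9.24 in resistant and 9.28, 9.07 and 9.13 in sensitive cells.

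The probes of FBXO32 disagreed in SQ20B. A dimmer probe, ILMN_1652280, had log2 levels of 6.64, 6.58 and 6.64 in resistant SQ20B cells, against 7.02, 7.18 and 7.15 in sensitive cells, a change of -0.50 ± 0.11 where the brightest probe had 0.84 ± 0.10. As the mean of both probes FBXO32 changed by 0.17 in SQ20B, which was not called. In the other lines both probes ran the same way, and the dimmer one changed by 0.69 ± 0.11 in FaDu, 0.12 ± 0.13 in Cal-27 and -1.25 ± 0.13 in SCC-25. The remaining probe, ILMN_1760830, was detected on 2 sensitive Cal-27 arrays alone and was not tested.

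**Figure D3:**
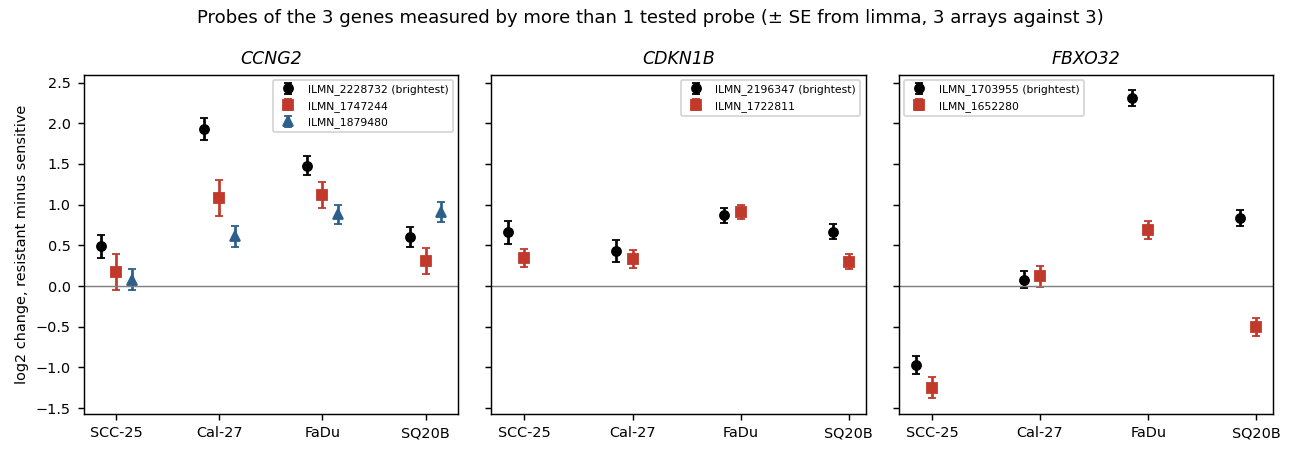
Log2 change, resistant minus sensitive (y axis), of each tested probe of CCNG2, CDKN1B and FBXO32 in each line (x axis), with the SE from limma, 3 arrays against 3. The probes of CCNG2 and of CDKN1B lie on 1 side of 0 in every line, although 1 CCNG2 probe was not detected in SCC-25, whereas the FBXO32 probes lie on opposite sides of 0 in SQ20B, at 0.84 and -0.50.

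BCL6 and CITED2 regulate transcription. BCL6 is a zinc finger repressor best known from germinal centre B cells. In SQ20B its log2 levels were 9.11, 8.96 and 8.80 in resistant cells, against 7.63, 7.59 and 7.56 in sensitive cells. In FaDu they were 8.08, 8.30 and 8.25 in resistant cells, against 6.75, 6.92 and 6.94 in sensitive cells. The lowest resistant array was more than 1 log2 unit above the highest sensitive array in both lines, and the changes were 1.36 ± 0.10 in SQ20B and 1.34 ± 0.10 in FaDu. SCC-25 had 8.61, 8.56 and 8.78 in resistant cells and 8.22, 8.28 and 8.48 in sensitive cells. Cal-27 had 8.05, 7.96 and 7.76 in resistant cells and 7.93, 7.60 and 7.61 in sensitive cells, which overlapped. Neither was called, at 0.32 ± 0.12 in SCC-25 and 0.21 ± 0.12 in Cal-27, although the SCC-25 change was called without sensitive replicate 3 (0.40) and under 4 other settings.

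CITED2 binds the coactivators CBP and p300 and competes there with HIF-1. Its log2 levels in SQ20B were 10.50, 10.60 and 10.60 in resistant cells, against 8.94, 8.91 and 9.04 in sensitive cells. SCC-25 had 8.37, 8.33 and 8.60 in resistant cells, against 7.64, 7.76 and 7.71 in sensitive cells. In these lines CITED2 was higher in every resistant array, by 1.60 ± 0.09 in SQ20B and 0.73 ± 0.10 in SCC-25. Cal-27 had 7.71, 7.37 and 7.56 in resistant cells and 7.96, 7.96 and 7.92 in sensitive cells, all resistant arrays being lower, with a change of -0.40 ± 0.10. FaDu had 8.02, 7.79 and 7.71 in resistant cells and 8.0, 8.06 and 8.18 in sensitive cells, which overlapped. The FaDu change of -0.24 ± 0.09 was called lower without resistant replicate 1 (-0.33) and under 5 other settings, 6 of 17 alternatives in all.

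The sensitive cells of the lines were then set against each other, a contrast that was not itself used to choose the genes. Its arrays also entered the changes that did choose them, so its counts and p-values are not independent of that choice. SCC-25 was grown in a mixed medium with hydrocortisone and Cal-27 in a medium without it, so line and medium cannot be told apart in the tongue pair. Between sensitive SCC-25 and Cal-27, 4 of the 10 genes were called, 3 higher and 1 lower in SCC-25, where 55.8% of all genes were called (27.9% higher and 27.9% lower). FBXO32 averaged 10.21 ± 0.23 in SCC-25 and 9.16 ± 0.11 in Cal-27 (log2 level, SD, n = 3 arrays each), a difference of 1.05 ± 0.11 (adjusted p = 3.26e-06, limma). By its dimmer probe, ILMN_1652280, the averages were 8.51 ± 0.33 in SCC-25 and 8.43 ± 0.04 in Cal-27, so this difference rests on the brightest probe. SESN1 was higher in SCC-25 by 0.66 ± 0.10 (adjusted p = 6.1e-05) and BCL6 by 0.62 ± 0.12 (adjusted p = 0.000597). TXNIP averaged 11.05 ± 0.22 in SCC-25 and 11.59 ± 0.07 in Cal-27, a difference of -0.54 ± 0.11 (adjusted p = 0.000692). The other 6 genes were not called, among them CCNG2 (0.34, adjusted p = 0.0536), CITED2 (-0.25, adjusted p = 0.0565) and PIK3IP1 (0.37, adjusted p = 0.0574). Without sensitive SCC-25 replicate 3, 7 of the 10 genes were called in this contrast.

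Between sensitive FaDu and SQ20B, 9 of the 10 genes were called, 2 higher and 7 lower in FaDu, where 55.7% of all genes were called (29.3% higher and 26.4% lower). FBXO32 averaged 5.79 ± 0.18 in FaDu and 7.62 ± 0.04 in SQ20B (log2 level, SD, n = 3 arrays each), a difference of -1.83 ± 0.10 (adjusted p = 4.33e-09, limma). CCNG2 averaged 5.76 ± 0.08 in FaDu and 7.0 ± 0.22 in SQ20B, a difference of -1.24 ± 0.12 (adjusted p = 1.13e-06). CITED2 (-0.88 ± 0.09), TXNIP (-0.87 ± 0.10), IRS2 (-0.82 ± 0.14) and BCL6 (-0.72 ± 0.10) were also lower in FaDu, with adjusted p from 3.83e-06 to 0.000241. PIK3IP1 was lower in FaDu by less (-0.34 ± 0.12, adjusted p = 0.0278), and its arrays overlapped. SESN1 (0.78 ± 0.09, adjusted p = 7.44e-06) and RBL2 (0.33 ± 0.08, adjusted p = 0.00309) were higher in FaDu. CDKN1B was the gene not called, at -0.12 ± 0.09 (adjusted p = 0.298). By their brightest probes, FBXO32, TXNIP, BCL6 and SESN1 were called in both parental comparisons. The share of all genes called in both was not counted, so nothing is read from this overlap.

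The FOXO factors themselves are controlled mainly by phosphorylation and location, which arrays do not measure. Their transcripts were not used to choose the genes and were tested. FOXO4 rose in 3 of the 4 lines. In SQ20B its log2 levels were 8.15, 8.01 and 8.15 in resistant cells, against 6.01, 5.64 and 5.75 in sensitive cells (2.30 ± 0.14, adjusted p = 2.11e-08, limma). In Cal-27 they were 6.67, 6.48 and 6.64 in resistant cells, against 5.48, 5.21 and 5.22 in sensitive cells (1.29 ± 0.12, adjusted p = 3.68e-06). In FaDu they were 7.19, 7.43 and 7.17 in resistant cells, against 6.80, 6.42 and 6.30 in sensitive cells (0.76 ± 0.14, adjusted p = 0.00067). The groups were apart in these lines and overlapped in SCC-25, where FOXO4 had 6.27, 6.32 and 6.27 in resistant and 6.0, 6.49 and 6.35 in sensitive cells (0.01 ± 0.12, adjusted p = 0.977). The change of FOXO4 itself differed between lines, by -1.29 ± 0.17 for SCC-25 minus Cal-27 (adjusted p = 9.71e-05) and by -1.54 ± 0.19 for FaDu minus SQ20B (adjusted p = 5.28e-05), in tests that called 33.6% and 33.4% of all genes.

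FOXO1 fell in SCC-25 (-0.63 ± 0.18, adjusted p = 0.0165, limma) and passed the threshold in no other line, with -0.41 ± 0.18 in Cal-27 (adjusted p = 0.0941), -0.19 ± 0.14 in FaDu (adjusted p = 0.326) and -0.16 ± 0.14 in SQ20B (adjusted p = 0.369). Its SCC-25 call was lost without resistant replicate 2 (-0.48) and without sensitive replicate 2 (-0.42). In fits of each line alone, the FOXO1 fall was not called in SCC-25 (-0.63) and was called in Cal-27 (-0.41). In the main fit FOXO3 was called in SQ20B alone (0.27 ± 0.10, adjusted p = 0.0292), and its change was 0.24 ± 0.09 in Cal-27 (adjusted p = 0.0682), 0.21 ± 0.10 in FaDu (adjusted p = 0.0926) and -0.08 ± 0.09 in SCC-25 (adjusted p = 0.597). With a trend or without background correction FOXO3 was also called higher in Cal-27 (0.24 and 0.22) and FaDu (0.21 and 0.20). Array weights, a stricter detection filter and a background correction without negative controls also gave a call in Cal-27. A second FOXO3 probe, ILMN_1844692, had -0.17 ± 0.13 in SQ20B, and the SQ20B call was lost when any of resistant replicates 1 (0.29), 2 (0.26) and 3 (0.26) or sensitive replicates 2 (0.24) and 3 (0.23) was left out.

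**Figure D4:**
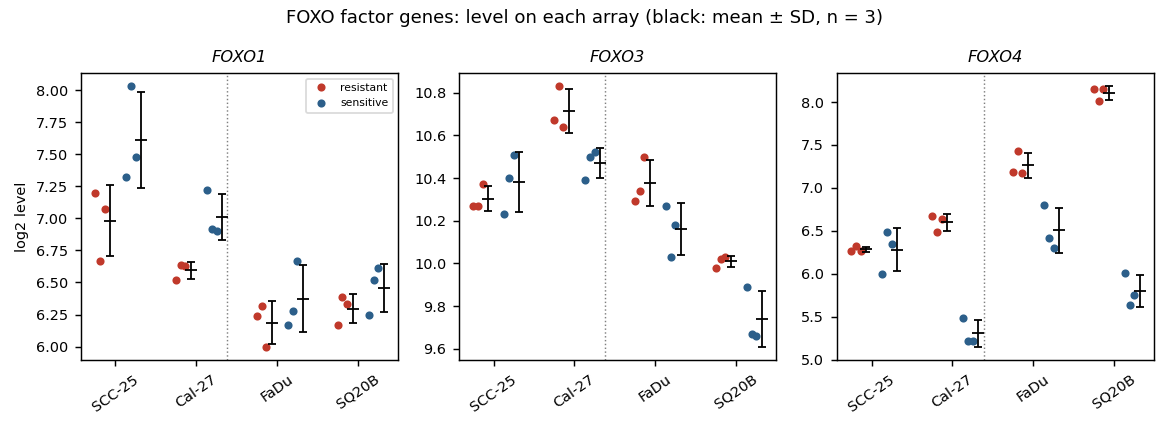
Log2 level of FOXO1, FOXO3 and FOXO4 on every array (y axis), 3 resistant arrays left of 3 sensitive arrays in each line, with black marks at the group means and their SD. FOXO4 lies higher in resistant Cal-27, FaDu and SQ20B cells, by 1.29, 0.76 and 2.30, and overlaps in SCC-25.

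The list of FOXO genes and of the pathway that controls them held 31 genes, of which 27 had a named probe and 26 were tested. In resistant SCC-25 cells 5 rose and 6 fell, in Cal-27 10 rose and 4 fell, in FaDu 6 rose and 4 fell, and in SQ20B 8 rose and 6 fell. Of all genes, 30.9%, 33.8%, 40.9% and 54.3% were called in the lines in that order. The rises and falls in Cal-27 numbered 5 and 4 without sensitive replicate 3, 6 and 3 without sensitive replicate 1, and 6 and 4 without resistant replicate 2 or 3. Those in FaDu numbered 4 and 5 without resistant replicate 1 or with the mean of probes, 4 and 4 without sensitive replicate 1, and 3 and 5 with median scaling. In SCC-25 they numbered 6 and 5 without resistant replicate 1, 4 and 3 without resistant replicate 2, 4 and 4 without resistant or sensitive replicate 3, 5 and 4 without sensitive replicate 1, and 5 and 3 without sensitive replicate 2. In SQ20B they numbered 5 and 7 without sensitive replicate 3 and 6 and 7 with the mean of probes. The medians of the list were -0.03, -0.03, 0.02 and -0.06 in that order of lines, close to those of all genes. In SCC-25 PHLPP2, a phosphatase that dephosphorylates AKT, rose by 0.89 ± 0.14 (adjusted p = 0.000344), and the related PHLPP1 fell, by -0.74 ± 0.14 (adjusted p = 0.00119), with resistant cells detected on 1 of 3 arrays. In the other lines PHLPP2 fell, at -0.82 ± 0.14 in Cal-27 (adjusted p = 0.000499), -0.73 ± 0.10 in FaDu (adjusted p = 9.1e-05) and -0.50 ± 0.10 in SQ20B (adjusted p = 0.000928). SGK1, a kinase related to AKT that also phosphorylates FOXO3, rose in Cal-27 (1.65 ± 0.09, adjusted p = 4.03e-08), SQ20B (2.13 ± 0.12, adjusted p = 1.07e-08) and SCC-25 (0.49 ± 0.09, adjusted p = 0.00153) and fell in FaDu (-0.46 ± 0.12, adjusted p = 0.00691). AKT1 fell in Cal-27, at -0.96 ± 0.08 (adjusted p = 2.05e-06), where its probe ILMN_2410909 was also called lower (-1.11 ± 0.10) and ILMN_1748661 was not called (-0.16 ± 0.21). In FaDu INPP4B, a phosphoinositide phosphatase, rose by 2.18 ± 0.16 (adjusted p = 3.62e-07), with sensitive cells detected on 2 of 3 arrays. INPP4B was also called higher in Cal-27 (0.39 ± 0.10), but lower in SCC-25 (-0.36 ± 0.10). In SQ20B the largest rise of the list was FOXO4, and USP7, which removes ubiquitin from FOXO proteins, fell, at -1.18 ± 0.12 (adjusted p = 2.78e-06). USP7 was also called lower in Cal-27 (-0.34 ± 0.09).

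Other reported FOXO targets, outside the 10 genes, were taken as a list of 32, of which 29 were tested. The list was written with results of these arrays known and is no independent evidence of a direction. It was not divided by whether FOXO raises or lowers a gene, so its counts and medians have no single expected sign. In SCC-25 8 rose and 4 fell, in Cal-27 12 rose and 4 fell, in FaDu 11 rose and 8 fell, and in SQ20B 16 rose and 5 fell, in lines where 30.9%, 33.8%, 40.9% and 54.3% of all genes were called. The balance in SCC-25 was 3 higher and 5 lower without resistant replicate 1, 5 and 4 without resistant replicate 3, 5 and 5 without sensitive replicate 3 or with median scaling, and 4 and 4 in a fit of that line alone. In FaDu it was 7 and 7 with median scaling. The list medians were 0.47 in SQ20B, 0.20 in Cal-27, 0.10 in FaDu and -0.05 in SCC-25. The largest rise in FaDu was that of SELENOP, a secreted selenium carrier (4.07 ± 0.16, adjusted p = 1.47e-09, limma). In SQ20B it was GABARAPL1, an autophagosome protein of the ATG8 family (2.70 ± 0.11, adjusted p = 6.08e-10). In Cal-27 it was CCND2, cyclin D2 (2.69 ± 0.10, adjusted p = 1.74e-09). In SCC-25 it was PPARGC1A, a coactivator of mitochondrial genes (0.93 ± 0.09, adjusted p = 6.74e-06), with sensitive cells detected on 2 of 3 arrays. CCND2 was also called higher in FaDu (1.93 ± 0.09) and SQ20B (0.50 ± 0.09), but lower in SCC-25 (-1.36 ± 0.10). GABARAPL1 was called higher in all 4 lines, with 1.84 ± 0.11 in FaDu, 0.65 ± 0.18 in SCC-25 and 0.64 ± 0.18 in Cal-27. SELENOP was also called higher in SQ20B (1.70 ± 0.16) and SCC-25 (0.74 ± 0.13).

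The same list also held falls in each line. In SQ20B PLK1, a mitotic kinase, was at -1.95 ± 0.14 (adjusted p = 1.53e-07, limma). PLK1 was also called lower in FaDu (-0.67 ± 0.14) and Cal-27 (-0.48 ± 0.11). In SCC-25 CDKN1A, the CDK inhibitor p21, was at -1.67 ± 0.11 (adjusted p = 2.29e-07), where the related CDKN1B of the 10 genes had 0.66 ± 0.14. CDKN1A was also called lower in FaDu (-0.28 ± 0.09), but higher in SQ20B (2.00 ± 0.09) and Cal-27 (0.82 ± 0.11). In FaDu the drug efflux pump ABCB1, detected on 2 of 3 resistant arrays, was at -0.82 ± 0.15 (adjusted p = 0.000621), a call lost on the authors' processed values (-2.04). In Cal-27 cyclin D1, CCND1, was at -0.80 ± 0.08 (adjusted p = 8.9e-06), whereas it was called higher in SCC-25 (0.25 ± 0.08) and FaDu (0.26 ± 0.08). PLK1 and CCND1 drive the cell cycle and CDKN1A restrains it.

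Relatives of the 10 genes by sequence family numbered 13, of which 12 were tested. In SCC-25 3 rose and 4 fell, in Cal-27 3 rose and 4 fell, in FaDu 4 rose and 2 fell, and in SQ20B 4 rose and 5 fell. The share of all genes called in the same lines was 30.9%, 33.8%, 40.9% and 54.3%, and the list medians were -0.03, -0.10, 0.02 and -0.12. ARRDC4, the arrestin-domain protein most closely related to TXNIP, rose in FaDu (0.98 ± 0.08, adjusted p = 7.39e-07, limma) and SQ20B (0.87 ± 0.08, adjusted p = 8.49e-07). ARRDC4 fell in Cal-27 (-0.94 ± 0.18, adjusted p = 0.0012) and SCC-25 (-0.80 ± 0.18, adjusted p = 0.00419), and its second probe, ILMN_2184064, was called the same way in 3 lines and not in SCC-25 (-0.45). ARRDC3, of the same family, rose in Cal-27 (1.85 ± 0.12, adjusted p = 1.35e-07) and SCC-25 (1.05 ± 0.12, adjusted p = 3.53e-05), although its second probe, ILMN_2198516, had 0.27 in SCC-25. ARRDC3 was also called higher in FaDu (0.63 ± 0.20), where its arrays overlapped. ARRDC2 fell in SQ20B (-1.04 ± 0.13, adjusted p = 1.95e-05), where its other probes were at 0.10 and 0.00. ARRDC2 was also called lower in Cal-27 (-0.56 ± 0.15), where its other probes were not called (0.07 and -0.24). In FaDu ARRDC2 was at -0.39 ± 0.13 (adjusted p = 0.0316), a call lost without resistant replicate 1 (-0.40) or 2 (-0.31) and without sensitive replicate 1 (-0.37) or 3 (-0.33), where its probe ILMN_1655612 was also called lower (-0.40) and ILMN_1710229 was not called (0.30). IRS1, the relative of IRS2, fell in Cal-27 (-1.34 ± 0.13, adjusted p = 6.09e-06), the line in which IRS2 had 1.03 ± 0.14. IRS1 was also called lower in SCC-25 (-0.67 ± 0.13) and SQ20B (-0.30 ± 0.10). SESN2, the relative of SESN1, rose in SQ20B (1.80 ± 0.24, adjusted p = 3.81e-05), where SESN1 had 0.27 ± 0.09 and SESN2 was detected on 2 of 3 sensitive arrays. SESN2 was also called higher in Cal-27 (1.48 ± 0.20) and FaDu (0.87 ± 0.24).

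**Figure D5:**
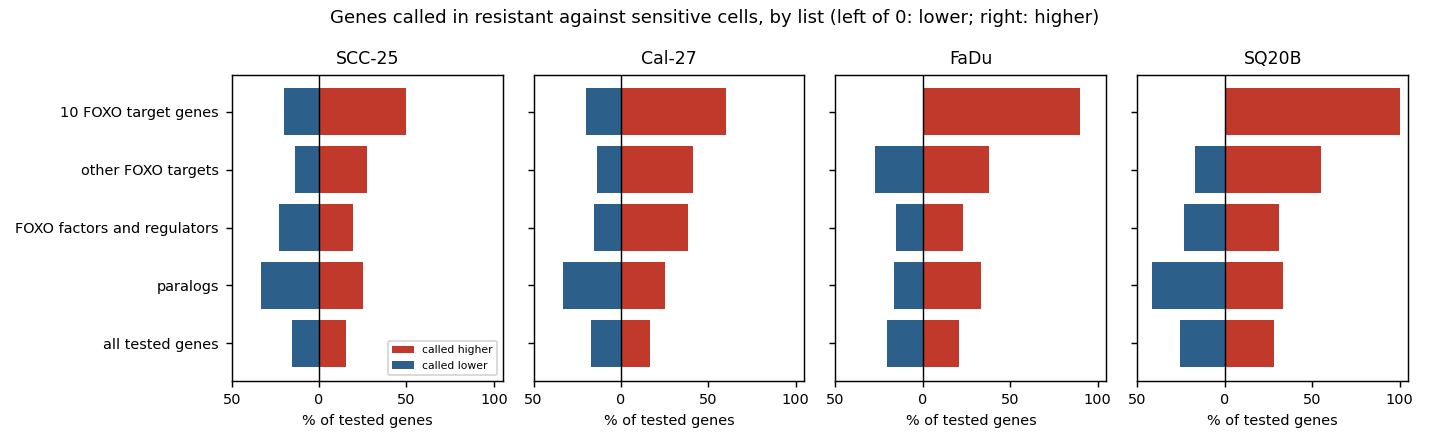
Percent of tested genes called in each line (x axis), lower left of 0 and higher right of 0, for the 10 genes, the other FOXO targets, the FOXO factors and regulators, the related genes and all genes. The regulators hold 5 rises and 6 falls in SCC-25 and 8 and 6 in SQ20B, whereas the 10 genes, chosen on these values, hold no called fall in FaDu or SQ20B in the values plotted, although CITED2 was called lower in FaDu under 6 alternatives.

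The gene with the widest range of group means in each table was set against all genes that were no members, as a description over 12 arrays that share normalization and carry the differences between lines. In SCC-25 and Cal-27 this was CCNG2, with a range of 1.93, and the genes most like it were SCARB2 (r = 0.984), PTPRE (r = 0.984) and IRAK3 (r = 0.971). In FaDu and SQ20B it was TXNIP, with a range of 3.64, and the genes most like it were PSG4 (r = 0.995), DDR1 (r = 0.993) and GBP2 (r = 0.992). PSG4 had mean log2 levels of 8.78 in resistant and 4.83 in sensitive FaDu cells, and of 9.87 in resistant and 5.77 in sensitive SQ20B cells. SCARB2 had 10.47 in resistant and 10.31 in sensitive SCC-25 cells, and 10.86 in resistant and 10.19 in sensitive Cal-27 cells.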

How the data were processed

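Intensities of 47231 probes on 24 arrays were deposited as 2 tables of bead signal, which the authors exported from GenomeStudio per the submitters' processing notes (version not given in the sources used here). In those tables each bead signal had a detection p-value and a bead number, per the file headers. No genome build is named. Probes were named by GEO's platform annotation, 30113 with 1 symbol, 8 with several and 17110 unlisted. Of the symbols, 30074 were checked by Entrez ID and 0 changed. No column outside the series was present.

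In R 4.3.3 with limma 3.58.1, each table was background-corrected and quantile-normalized with neqc (negative control distribution inferred from the detection p-values, offset 16), which puts values on a log2 scale. Probes detected at p under 0.05 on at least 3 of the 24 arrays were kept (19171 probes), and the brightest probe stood for each of 14077 genes. Quantile normalization sets the arrays of a table to 1 distribution, so changes are relative to all genes. A dim signal is compressed by the offset, so a fold of a dim gene is understated. lmFit and eBayes were run on the 12 arrays of a table (4 groups, 8 residual degrees of freedom), with Benjamini-Hochberg adjustment over all genes and a threshold of 0.05. The precision is limited by 3 arrays per group. The fit was tested on simulated data.

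The members and lists were chosen with earlier results of these data known. Named were all 10 members with every probe, the FOXO genes, from each list the largest called rise and fall per line without overlap of arrays, and the 3 genes most correlated with the member of widest range in a table. Some items of the lists are not reported here. Alternatives covered background correction, scaling, filters, probe choice, array weights, a trend, a fit per line, a replicate block, the authors' deposited processed intensity table (floor 1), a fold minimum and each array left out. Slide as a block was not run, since no slide is given in the sources used here.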

Additional observations from a re-analysis of the deposited data

Results flagged for a closer look

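TXNIP, PIK3IP1 and CITED2 moved in opposite directions in the paired tongue lines, with every resistant array on one side of every sensitive array in each line. TXNIP changed by 0.46 in SCC-25 and -0.31 in Cal-27, PIK3IP1 by -0.57 and 0.71, and CITED2 by 0.73 and -0.40. These differences between lines were not tested, because the genes were chosen on the same changes.

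For the genes that are no members, the difference of the changes was tested by the interaction term of limma, with p adjusted over all 14077 genes. These genes were named for a large change in 1 of the lines on the same arrays, from lists written with results known, so the tests are not independent of that choice, apart from those of the FOXO genes. Of 14 genes named in the tongue pair 11 were called and 3 were not (FOXO1, FOXO3 and ARRDC4). Of 13 named in the other pair 8 were called and 5 were not (FOXO1, FOXO3, PHLPP2, ARRDC4 and SESN2). In the tongue pair, given as the SCC-25 change minus the Cal-27 change, FOXO4 differed by -1.29 (adjusted p = 9.71e-05), PHLPP2 by 1.71 (adjusted p = 2.59e-05), PHLPP1 by -0.67 (adjusted p = 0.0164), SGK1 by -1.16 (adjusted p = 2.6e-05) and AKT1 by 0.93 (adjusted p = 6.97e-05). Among other FOXO targets, the differences were -4.05 for CCND2 (adjusted p = 1.89e-09), -2.48 for CDKN1A (adjusted p = 1.03e-07), 1.05 for CCND1 (adjusted p = 2.19e-05) and 0.85 for PPARGC1A (adjusted p = 0.00019). Among the related genes, they were -0.81 for ARRDC3 (adjusted p = 0.00279) and 0.66 for IRS1 (adjusted p = 0.0159).

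In the other pair, given as the FaDu change minus the SQ20B change, FOXO4 differed by -1.54 (adjusted p = 5.28e-05), INPP4B by 2.55 (adjusted p = 2.75e-06) and USP7 by 1.09 (adjusted p = 0.000326). SELENOP differed by 2.37 (adjusted p = 6.55e-06), PLK1 by 1.28 (adjusted p = 0.000349), GABARAPL1 by -0.87 (adjusted p = 0.00079), ABCB1 by -0.68 (adjusted p = 0.0222) and ARRDC2 by 0.65 (adjusted p = 0.0166). In this test 33.6% of all genes were called in the tongue pair and 33.4% in the other pair.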

How the results depend on the processing

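Each member's value in each line was recomputed under 11 other settings and with each of 6 arrays left out. No called value changed sign under these 17 alternatives. RBL2 in SCC-25, which was not called, changed sign in 2. Calls ended for TXNIP in Cal-27 under 9 alternatives, CDKN1B in Cal-27 under 6, CCNG2 in SCC-25 under 5, and SESN1 in SQ20B under 5 and in Cal-27 and FaDu under 4 each. Calls were gained for CITED2 in FaDu under 6 (lower) and for BCL6 in SCC-25 under 5 (higher). The FBXO32 call in SQ20B ended with the mean of its probes (0.17). Sizes moved most for CCNG2 in Cal-27 (0.83 to 2.70) and FBXO32 in FaDu (1.34 to 2.72). A minimum 2-fold change left 558 of 4348 called genes in SCC-25, 802 of 4765 in Cal-27, 813 of 5762 in FaDu and 1972 of 7640 in SQ20B. With arrays left out, the called genes were 3707 to 4058 in SCC-25, 3928 to 4158 in Cal-27, 5168 to 5446 in FaDu and 7079 to 7238 in SQ20B.

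The called members with arrays left out were 5 to 7 in SCC-25 (7 with all arrays), 5 to 7 in Cal-27 (8), 8 to 9 in FaDu (9) and 9 to 10 in SQ20B (10). The 5 in Cal-27 came without resistant replicate 1 or 2 or sensitive replicate 2 or 3. Between sensitive SCC-25 and Cal-27 they were 4 to 7 (4), with 7 without SCC-25 sensitive replicate 3 and also 7 with detection p under 0.01 on at least 6 arrays, and between sensitive FaDu and SQ20B 8 to 9 (9). The regulators called were 7 to 11 in SCC-25 (11), 9 to 12 in Cal-27 (14), 8 to 10 in FaDu (10) and 11 to 14 in SQ20B (14). The lowest came without resistant replicate 2 in SCC-25 and without sensitive replicate 1 or 3 in Cal-27. The other targets called were 8 to 11 in SCC-25 (12), 14 to 15 in Cal-27 (16), 14 to 18 in FaDu (19) and 19 to 20 in SQ20B (21). The cause of these moves was not tested, beyond the fewer arrays in each fit. Same-numbered arrays showed no shared deviation (correlations from -0.07 to 0.07). The labels do not say whether equal numbers were handled together, and these correlations cannot exclude it. With the replicate block, the called members numbered 10 in SQ20B, 9 in FaDu and 7 in each tongue line, the called genes 4165 for SCC-25, 4569 for Cal-27, 5664 for FaDu and 7570 for SQ20B, and the called members between sensitive cells 5 in the tongue pair and 9 in the other.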
